A study of Mus musculus with 8 samples.

Results

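The genes of ependymal cells and motile cilia followed in cultured mouse astrocytes were 10 in number (Foxj1, Rsph1, Ccdc153, Tmem212, Dynlrb2, Mlf1, Tekt1, Hydin, Rarres2 and Spef2). They were chosen by gene symbol from the 54146 genes in the deposited tables, and each symbol was found in all 8 libraries. The cells were primary cortical glia of neonatal C57BL/6 pups, infected with lentivirus carrying a non-silencing shRNA (control KD) or an shRNA against Gstm1 (GSTM1 KD). All groups passed through the same puromycin selection, shaking off of loosely attached glia and removal of CD11b-positive cells, so each library is a bulk culture and not a sorted ependymal population. Control KD and GSTM1 KD cells were left in the basal state or stimulated for 6 h with 50 ng/ml TNF-α, giving 4 groups of 2 biological replicates. The comparisons asked how far GSTM1 KD changed these genes in each state, how far TNF-α changed them in each kind of cell, and whether the responses to TNF-α differed.

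Ependymal cells line the brain ventricles and carry tufts of motile cilia that move cerebrospinal fluid. A motile cilium is built around the axoneme, a ring of doublet microtubules around a central pair, on which dynein arms produce the bending and radial spokes and nexin links regulate it. The transcription factor FOXJ1 turns on the genes of this machinery together with factors of the RFX family, which bind a sequence called the X-box.

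Expected counts per library summed to between 17349682 and 34434615. Levels within a gene are given below in CPM, counts scaled to a common library size after TMM (a correction for library composition), and levels between genes in the deposited TPM, which also divides by effective transcript length. A total of 3 counts, taken as the floor of detection, corresponds to 0.0871 to 0.173 CPM. Gstm1 had 230 and 377 CPM in the control KD libraries in the basal state against 29 and 31.3 in GSTM1 KD, and 209 and 390 CPM against 24.3 and 23.3 after TNF-α. All 4 GSTM1 KD libraries were therefore below all 4 control KD libraries in the targeted gene, and the lower Gstm1 level among the control KD libraries was in replicate 1 in both states. Astrocyte markers were abundant, with Gfap between 920 and 5627 CPM.

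Foxj1, the forkhead factor of the motile cilia programme, had the highest level of the 10 genes, with a mean of 88.6 TPM over the 8 libraries and a range of 64.8 to 116 TPM. Rarres2, which encodes the secreted chemoattractant chemerin, followed at 39.7 TPM, and Rsph1, a protein of the radial spoke head, at 23.1 TPM. Mlf1, which encodes myeloid leukemia factor 1, was at 13.2 TPM, and Dynlrb2, a light chain of the dynein motor, at 10.3 TPM. Tekt1, a tektin filament protein of the doublet microtubules, had 3.54 TPM. Spef2, a protein of the central pair, had 3.01 TPM. Ccdc153, a coiled-coil protein used as an ependymal marker, had 1.96 TPM. Hydin, another central pair protein, had 0.246 TPM. Tmem212, a membrane protein used as an ependymal marker, had 0.171 TPM, and no library held more than 2 counts of it.

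In this order Foxj1 and Rarres2 each lay above the next gene in both libraries of all 4 groups. Further down the neighbours ran into each other: the TPM ranges of Mlf1 and Dynlrb2 overlapped in 3 of 4 groups, those of Tekt1 and Spef2 in 4 of 4 and those of Hydin and Tmem212 in 3 of 4. The regulator of the programme was well represented, while Tmem212 and, in control KD, Ccdc153 were near or under the floor of 3 counts. The structural genes Rsph1, Spef2 and Tekt1 had at least 180, 43 and 23 counts in every library. Counts of Ccdc153 ran from 0 to 35, of Hydin from 7 to 29 and of Dynlrb2 from 6 to 67, so differences in these 3 genes rest on few fragments. The effective length deposited for Ccdc153 varied from 296 to 721 bases and that for Hydin from 2142 to 8309, so their TPM values also move with the transcripts to which reads were assigned.

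In GRCm38 Foxj1 is at chr11:116330704-116335399 (minus strand), Rsph1 at chr17:31255019-31277383 (minus), Ccdc153 at chr9:44240676-44247306 (plus), Tmem212 at chr3:27866066-27896368 (minus) and Dynlrb2 at chr8:116504974-116515915 (plus). Mlf1 is at chr3:67374097-67400003 (plus), Tekt1 at chr11:72344722-72362442 (minus), Hydin at chr8:110266977-110610253 (plus), Rarres2 at chr6:48569696-48572789 (minus) and Spef2 at chr15:9578193-9748868 (minus). Exons of Hydin overlap the antisense gene Gm26832 and those of Rarres2 overlap Lrrc61, both on the opposite strand. The study's methods name a directional library kit. Use of strand in the counting is not given in the sources used here, so whether reads of these pairs were kept apart is not known.

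**Figure D1:**
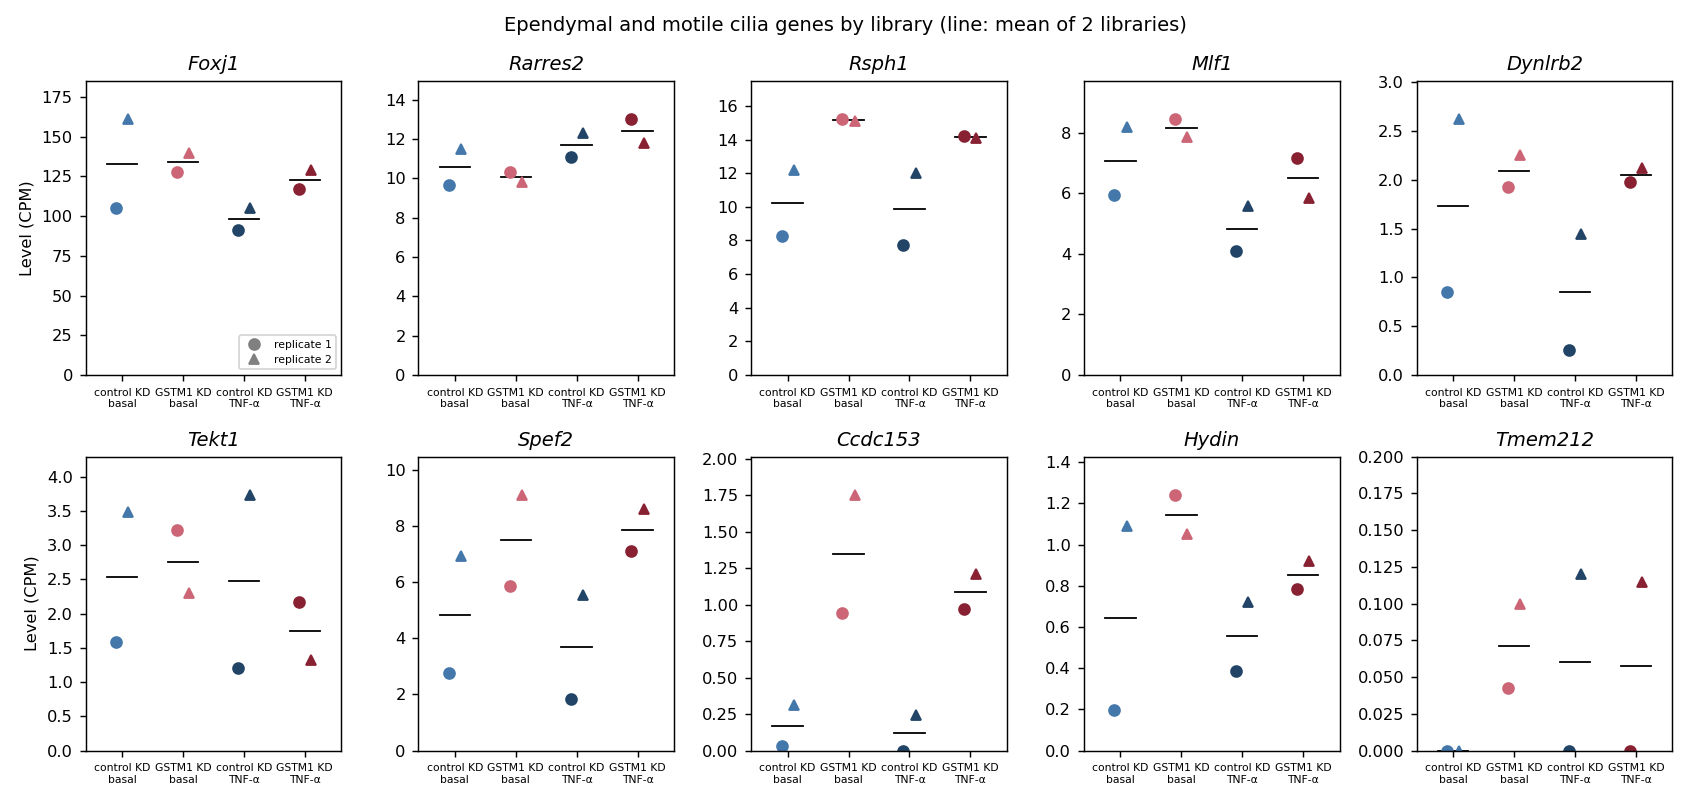
Level of each of the 10 genes in CPM (linear axis from 0) in the 8 libraries, by group; circles are replicate 1, triangles replicate 2 and lines the mean of 2 libraries. The circle lies below the triangle in both control KD groups for every gene but Tmem212, and Ccdc153 is higher in all GSTM1 KD libraries than in any control KD library.

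The first feature of the data was a difference between the control KD libraries themselves. Foxj1 had 105 CPM in control KD replicate 1 and 161 CPM in replicate 2 in the basal state. Dynlrb2 had 0.848 and 2.62 CPM there, and 0.258 and 1.44 CPM after TNF-α. Of the 9 genes that passed the filter on low counts, 9 were higher in replicate 2 than in replicate 1 in control KD in the basal state, and 9 after TNF-α. The replicate differences of these 2 groups correlated over all 15332 genes at r = 0.575, the highest of any pair of groups, so the 2 counts are not independent. Replicate 2 was over 1.5 times higher for 6 of the 9 in the basal state, against 10.5% of all 15332 genes tested, and for 6 of the 9 after TNF-α, against 10.1% of all genes. The median difference of the 9 genes was 1.09 and 0.77 on the log2 scale (prior count 2), with a median over all genes of -0.00 and 0.01. In GSTM1 KD, 2 of the 9 genes (Ccdc153 and Spef2) were over 1.5 times higher in replicate 2 in the basal state, against 5.29% of all genes. After TNF-α none was, against 4.81% of all genes, and Tekt1 was over 1.5 times lower.

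Other genes of the axoneme followed the same course in control KD. Of 78 tested genes in 5 lists (dynein subunits, dynein assembly and docking, radial spokes and central pair, nexin-dynein and ruler proteins, tektins and inner microtubule proteins), 45 in the basal state and 40 after TNF-α were over 1.5 times higher in replicate 2. The corresponding counts in GSTM1 KD, where fewer of all genes passed this fold too, were 2 and 5. The astrocyte markers Gfap and Aldh1l1 were also higher in control KD replicate 2. Gfap had 995 and 3078 CPM in control KD replicates 1 and 2 in the basal state and 920 and 2893 CPM after TNF-α. Aldh1l1, an astrocyte enzyme, had 90 and 256 CPM and then 73.7 and 194 CPM. The summed level of the 11 astrocyte markers in control KD was 3323 and 7364 CPM in the basal state and 3368 and 7420 CPM after TNF-α. In GSTM1 KD this sum was higher in replicate 2 as well, with 6746 and 9760 CPM and then 6847 and 9626 CPM. Microglia markers did not all move one way. Itgam (which encodes CD11b) had 1.72 and 0.313 CPM in control KD replicates 1 and 2 in the basal state and 1.51 and 0.361 CPM after TNF-α, and Csf1r, C1qa and Trem2 were likewise higher in replicate 1 in both states, whereas Tmem119 had 0.48 and 1.33 CPM and then 0.172 and 0.541 CPM. P2ry12 and Aif1, also markers of microglia, had 4 counts or fewer in each library. The part of these cells in the cilia gene difference was not tested. In bulk cultures, fewer ependymal cells and less RNA per cell cannot be told apart, which holds for every result below.

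**Figure D2:**
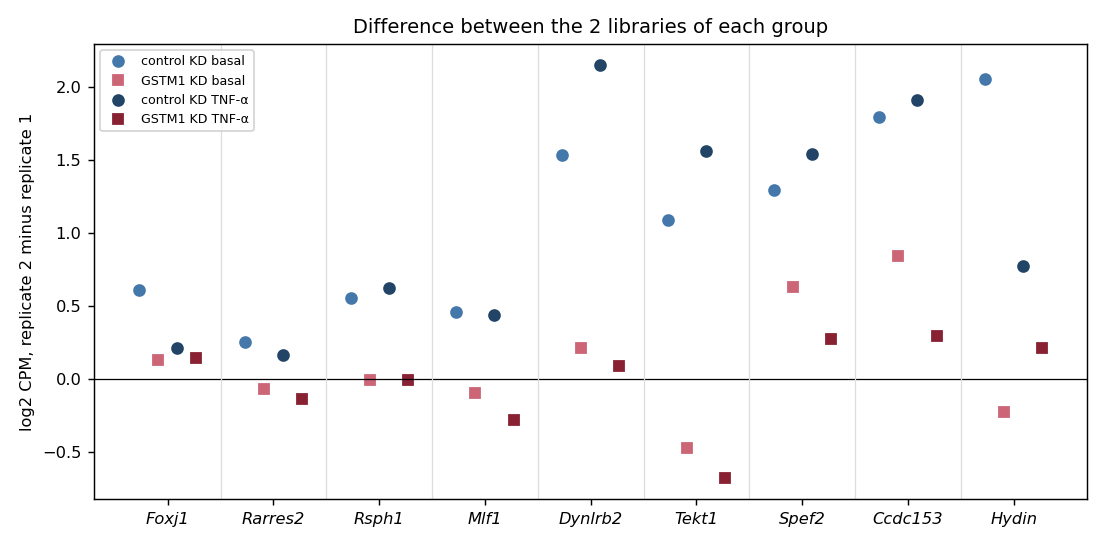
Difference between replicate 2 and replicate 1 on the log2 CPM scale (prior count 2) for the 9 genes tested, in each of the 4 groups. All 18 circles (control KD) lie above 0, up to 2.15 for Dynlrb2 after TNF-α, while the squares (GSTM1 KD) lie between -0.68 and 0.84.

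In the basal state no difference between GSTM1 KD and control KD passed the threshold for any of the 9 genes tested. With edgeR (quasi-likelihood test, p-values adjusted by Benjamini-Hochberg over all 14899 genes tested), 0 of the 9 had an adjusted p under 0.05, against 10.2% of all genes. At an unadjusted p under 0.05 there were 2 of the 9 (Ccdc153 and Rsph1), against 4712 of all 14899 genes. DESeq2 also called 0 of the 9, against 2494 of 13487 genes. The median log2 fold change of the 9 was 0.29 (-0.00 for all genes), and 8 of them had a positive estimate. The GSTM1 KD libraries did not overlap with and lay above control KD for 2 of the 9 genes, whereas 32.3% of all genes did so.

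The transcription factor Foxj1 had 105 and 161 CPM in control KD, against 128 and 140 CPM in GSTM1 KD, so the GSTM1 KD values fell between those of control KD. Its log2 fold change was 0.01 (95% interval -0.51 to 0.53; adjusted p = 0.987, edgeR). Rsph1 of the radial spoke had 8.28 and 12.2 CPM in control KD, against 15.2 and 15.1 CPM in GSTM1 KD. The groups did not overlap, and the log2 fold change of 0.57 (standard error 0.226, interval 0.01 to 1.13) had an adjusted p of 0.152 in edgeR. Dynlrb2 had 0.848 and 2.62 CPM against 1.93 and 2.25 CPM, with a log2 fold change of 0.29 (interval -1.10 to 1.68). Its paralog Dynlrb1, the broadly expressed form of this light chain, was at 102 and 90.8 CPM in control KD and rose in GSTM1 KD to 146 and 152 CPM (log2 fold change 0.63; edgeR, adjusted p = 0.0304). RSEM divides any reads that match both paralogs, and their number was not measured here.

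Tekt1 had 1.58 and 3.48 CPM in control KD against 3.22 and 2.30 CPM in GSTM1 KD, and Mlf1 had 5.96 and 8.21 CPM against 8.45 and 7.86 CPM. Both overlapped between the groups, with log2 fold changes of 0.14 and 0.21. The central pair genes had wider intervals. Hydin had 0.198 and 1.09 CPM against 1.24 and 1.05 CPM (log2 fold change 0.89, interval -0.96 to 2.74). It met the filter on low counts in both libraries only in GSTM1 KD, so the filter favoured this direction. Spef2 had 2.77 and 6.92 CPM against 5.88 and 9.11 CPM (0.64, interval -0.53 to 1.81). Rarres2 had 9.66 and 11.5 CPM against 10.3 and 9.81 CPM, and its estimate of -0.07 was the only negative one.

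Ccdc153 had the largest difference among the 9 genes. Its counts were 1 and 8 in control KD, against 22 and 35 in GSTM1 KD, or 0.0283 and 0.313 CPM against 0.944 and 1.75 CPM. The groups did not overlap, and the estimated log2 fold change was 3.08 (8.46-fold; standard error 0.847, interval 0.98 to 5.18; edgeR, adjusted p = 0.0748). The gene passed the filter on low counts through its GSTM1 KD libraries alone, so a difference in this direction was favoured by the filter. Tmem212 had 0 and 0 counts in control KD, against 1 and 2 in GSTM1 KD. It was not tested, and a level in both groups at or under the floor allows no fold.

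After TNF-α again 0 of 9 genes passed in edgeR, against 16.2% of all 14593 genes tested. DESeq2 called 0 of the 9, against 2835 of 13640 genes. Here 7 of the 9 genes were higher in both GSTM1 KD libraries than in either control KD library, against 34.6% of all genes. The 7 include Ccdc153, Dynlrb2 and Hydin. Each of these met the filter on low counts in both libraries only in GSTM1 KD, so the filter favoured this direction for them. The median log2 fold change of the 9 was 0.51 (-0.01 for all genes), with a positive estimate for 8. The 2 genes whose groups overlapped were Tekt1 and Rarres2.

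Foxj1 had 91 and 105 CPM in control KD, against 117 and 129 CPM in GSTM1 KD after TNF-α. The groups did not overlap, and the log2 fold change was 0.30 (1.23-fold; interval 0.02 to 0.58; edgeR, adjusted p = 0.122). Rsph1 had 7.75 and 12 CPM against 14.2 and 14.1 CPM, a log2 fold change of 0.51 (interval -0.09 to 1.10; adjusted p = 0.186). Its GSTM1 KD libraries were nearly equal within each state, with means of 15.2 ± 0.0775 CPM (SD, n = 2) in the basal state and 14.2 ± 0.0635 CPM after TNF-α, while the control KD means were 10.2 ± 2.77 and 9.86 ± 2.98 CPM. The GSTM1 KD values rest on 355 and 302 counts and then 308 and 246 counts. An SD of 2 libraries is a poor measure of spread, so so near a match does not show a tighter level in GSTM1 KD. Dynlrb2 had 0.258 and 1.44 CPM against 1.98 and 2.12 CPM, a log2 fold change of 1.32 (interval -0.43 to 3.08; adjusted p = 0.234). Dynlrb1 was at 96.9 and 83.6 CPM and rose to 145 and 153 CPM (0.70; edgeR, adjusted p = 0.0216).

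Spef2 had 1.85 and 5.53 CPM against 7.11 and 8.61 CPM after TNF-α, a log2 fold change of 1.09 (interval -0.14 to 2.33; edgeR, adjusted p = 0.175). Hydin had 0.387 and 0.722 CPM against 0.785 and 0.919 CPM, and Mlf1 had 4.09 and 5.59 CPM against 7.16 and 5.86 CPM. Their groups were adjacent rather than far apart, with log2 fold changes of 0.62 and 0.41. Tekt1 had 1.21 and 3.73 CPM against 2.17 and 1.32 CPM (log2 fold change -0.48, interval -1.97 to 1.01). Rarres2 had 11.1 and 12.3 CPM against 13 and 11.8 CPM (0.07, interval -0.35 to 0.48), the narrowest range of the 9 genes in relative terms across the 8 libraries. Ccdc153 had 0 and 4 counts in control KD against 21 and 21 in GSTM1 KD, or 0 and 0.241 CPM against 0.969 and 1.21 CPM. Its log2 fold change was 3.29 (9.78-fold; standard error 0.911, interval 1.02 to 5.56; edgeR, adjusted p = 0.0636), and it again passed the filter through GSTM1 KD alone. Tmem212 had at most 2 counts in each library.

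**Figure D3:**
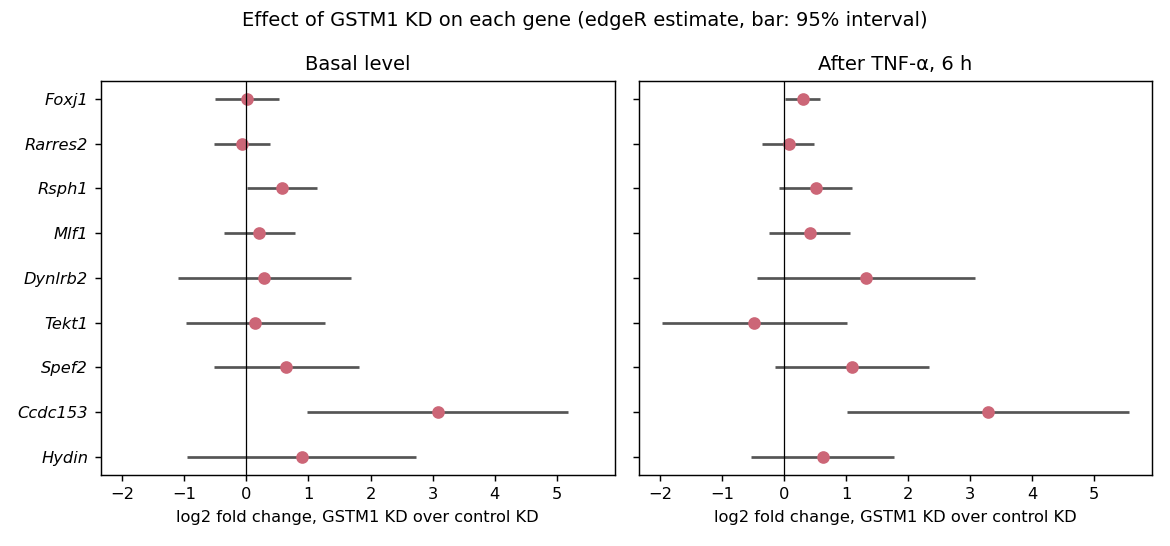
Log2 fold change of GSTM1 KD over control KD for the 9 genes tested, in the basal state and after TNF-α; points are edgeR estimates and bars 95% intervals, and the vertical line marks no change. The bars of Ccdc153 lie above 0 in both states, those of Rsph1 in the basal state and Foxj1 after TNF-α just exclude 0, and no gene passed after adjustment.

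These estimates depended on which control KD library was in the comparison. Without control KD replicate 1, the median log2 fold change of the 9 genes was -0.01 in the basal state, with 4 of 9 positive, and 0.21 after TNF-α, with 7 of 9 positive. Without control KD replicate 2, the medians were 0.86 and 0.85. In these fits the lone control KD library was assumed to vary like the other group. Foxj1 in the basal state changed its sign, from 0.34 without replicate 2 to -0.27 without replicate 1. The estimate of Ccdc153, whose direction the count filter favoured, moved from 2.07 without control KD replicate 1 to 5.34 without replicate 2 in the basal state. After TNF-α it moved from 2.12 to 7.49 in the same way, the latter against a single library with 0 counts, so that it depends on the prior count and is no bound. The size of its fold is therefore uncertain. Without GSTM1 KD replicate 1 or replicate 2, 0 of the 9 genes were called in either state, in fits that called 1 and 3 of all genes in the basal state and 0 and 94 after TNF-α.

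**Figure D4:**
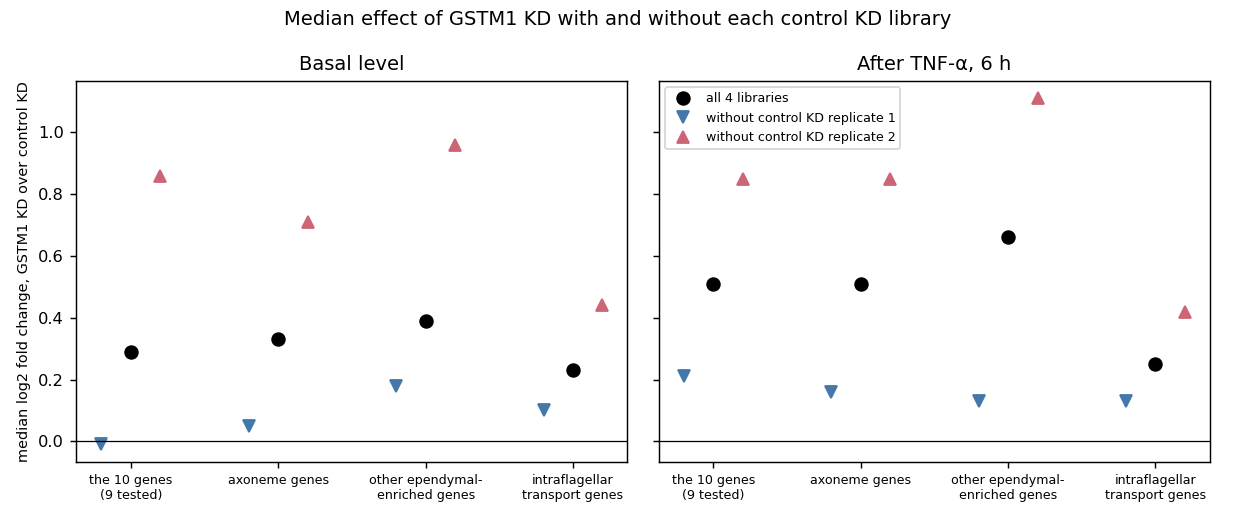
Median log2 fold change of GSTM1 KD over control KD in 4 gene lists in the basal state and after TNF-α, with all 4 libraries (circles) and without control KD replicate 1 (downward triangles) or replicate 2 (upward triangles). For the 9 tested genes the median moves between -0.01 and 0.86 in the basal state and between 0.21 and 0.85 after TNF-α.

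Genes of the same machinery outside the 10 were examined in 7 lists of 123 genes. Of the 103 tested in the basal state, 1 rose and 3 fell in GSTM1 KD (edgeR, adjusted over all genes), 75 had a positive estimate, and the median log2 fold change was 0.35. After TNF-α, 2 of 101 rose, 3 fell, 83 had a positive estimate, and the median was 0.51. With a library left out the medians ranged from 0.03 to 0.74 in the basal state and from 0.15 to 0.88 after TNF-α. The shares called are below the 10.2% and 16.2% of all genes. The genes that fell were the same 3 in both states. Dnaaf5, a factor for assembling dynein arms, had 63.8 and 62.7 CPM in control KD, against 32.8 and 33.2 CPM in GSTM1 KD in the basal state (log2 fold change -0.94; edgeR, adjusted p = 0.016). Gas8, a subunit of the nexin-dynein regulatory complex, had 38.1 and 33.7 CPM against 19 and 14.8 CPM (-1.09; adjusted p = 0.0257). E2f5, a transcription factor that takes part in multiciliation, had 31.3 and 29.1 CPM against 18.2 and 14.4 CPM (-0.89; adjusted p = 0.0326). After TNF-α the values for Dnaaf5, Gas8 and E2f5 were -1.11 (edgeR, adjusted p = 0.0111), -1.25 (adjusted p = 0.0116) and -0.94 (adjusted p = 0.0256).

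Efhc2, a protein inside the doublet microtubules, rose in the basal state from 0.141 and 0.0782 CPM to 0.558 and 0.751 CPM (log2 fold change 2.47; edgeR, adjusted p = 0.0453), on 5 and 2 counts in control KD, against 13 and 15 in GSTM1 KD. Like Ccdc153, it passed the filter on low counts through the GSTM1 KD libraries alone, and DESeq2 did not call it. After TNF-α the genes that rose were Dnah7b, a heavy chain of the inner dynein arm, from 4.99 and 6.86 to 11.4 and 13.1 CPM (1.03; adjusted p = 0.0397), and Pifo, a ciliary protein, from 1.46 and 1.74 to 3.92 and 3.45 CPM (1.18; adjusted p = 0.0498). In lists with no call the 2 genes with the highest mean CPM, a ranking without regard to length, are given beside the tally of the list. In the basal state 13 of 17 dynein subunits tested had a positive estimate (median 0.35), as did 11 of 13 spoke and central pair genes (0.39) and 14 of 17 ependymal-enriched genes (0.39). With a library left out, the median of the ependymal-enriched list ranged from 0.18 to 0.96. That of the 5 axoneme lists together ranged from 0.05 to 0.71. The dynein subunits Dnal1 and Wdr78 had log2 fold changes of -0.60 and -0.07, the spoke genes Rsph3b and Rsph3a 0.23 and 0.39, and Ulk4 and Kif9 of the ependymal-enriched list 0.36 and -0.09. After TNF-α, 11 of 13 spoke and central pair genes (median 0.43) and 17 of 19 tektins and inner proteins (0.52) were positive. With a library left out, the median of the axoneme lists together ranged there from 0.16 to 0.85. Rsph3b and Rsph3a had 0.41 and 0.43, and Nme7 and Cfap20, both associated with doublet microtubules, 0.43 and 0.36.

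Intraflagellar transport carries cargo along all cilia, motile or not, and its 30 genes were more abundant, with a median of the gene means of 28.8 TPM against 6.92 TPM for the 10 genes. Ift57 rose in GSTM1 KD from 50.5 and 54.6 to 72.5 and 76.2 CPM in the basal state (log2 fold change 0.50; edgeR, adjusted p = 0.0406), and Dync2li1, of the retrograde dynein motor, from 37.9 and 39.5 to 53 and 53.5 CPM (0.46; adjusted p = 0.0484). Both also rose after TNF-α, by 0.56 and 0.52 (edgeR, adjusted p = 0.0275 and 0.0293). Ift88 fell in the basal state from 11.7 and 14.2 to 7.55 and 6.26 CPM (-0.91; adjusted p = 0.0497), and Ttc26 from 13.2 and 14.6 to 7.68 and 5.91 CPM (-1.03; adjusted p = 0.0385). The medians of the list were 0.23 and 0.25, and 0.10 and 0.13 without control KD replicate 1. Of the 8 calls in the basal state and 7 after TNF-α in these 8 lists, 0 and 0 held when either GSTM1 KD library was left out, in the fits that called few or none of all genes. Over all alternatives none of these estimates changed sign, with Dnaaf5 between -0.97 and -0.91 and Dync2li1 between 0.43 and 0.48 in the basal state and Gas8 between -1.37 and -1.13 after TNF-α. Of the calls, 7 and 6 held without control KD replicate 1, the exceptions being Efhc2 and Pifo. With effective lengths as offsets 4 of the 8 and 6 of the 7 held (Dync2li1, Efhc2, Ift88 and Ttc26 were lost in the basal state and Pifo after TNF-α), and in DESeq2 7 and 6 (without Efhc2 and Pifo).

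Several regulators that act upstream of Foxj1 or on centrioles were low beside its mean of 88.6 TPM, but not all regulators were. Of the 15 multiciliation regulators listed, 6 had a mean under 1 TPM and 6 had 10 TPM or more. The latter include E2f4 (44.9 TPM) and E2f5 (26.7 TPM). Mcidas, which starts the multiciliated cell programme, had a mean of 0.171 TPM and 0 to 12 counts per library, and Foxn4 had 0.0288 TPM and 0 or 1 counts. Gmnc, which acts with Mcidas, had 3.53 TPM on 52 to 305 counts, and Deup1, of the structure that amplifies centrioles, 0.571 TPM on 3 to 28 counts. Replicates 1 and 2 of Gmnc had 5.37 and 11.9 CPM in control KD and 10.9 and 4.16 CPM in GSTM1 KD in the basal state. After TNF-α they had 3.4 and 8.54 CPM and then 6.46 and 2.99 CPM. Replicate 2 was thus the higher in control KD and the lower in GSTM1 KD. Myb and Trp73 were also lower in replicate 2 of GSTM1 KD in both states, whereas Rfx2 and Rfx3 were higher there. Among the RFX factors, Rfx3 had 23.5 and 45 CPM in control KD, against 46 and 48.7 CPM in GSTM1 KD in the basal state, so that it too was lower in control KD replicate 1. Its log2 fold change was 0.47 in the basal state and 0.70 after TNF-α (edgeR, adjusted p = 0.326 and 0.0646). The estimates were 0.74 and 0.84 for Rfx2, -0.11 and 0.08 for Rfx4 and -0.48 and -0.40 for Rfx1, and none of the 4 passed the test. Rfx1 had 26.8 and 29.5 CPM in control KD, against 19.1 and 21.4 CPM in GSTM1 KD in the basal state. Sntn of the ependymal list and Pih1d3 of the dynein assembly list had 0 counts in all 8 libraries, which allows up to 3 counts in each.

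TNF-α changed none of the 9 genes past the threshold. In control KD edgeR called 0 of 9, against 2.63% of all 15332 genes, and in GSTM1 KD 0 of 9, against 2.65%. At an unadjusted p under 0.05 there were 0 of 9 in both, against 1920 of all 15332 genes in control KD and 1670 in GSTM1 KD. DESeq2 called 0 of 9 in both, against 738 of 17259 genes in control KD and 629 of 16773 in GSTM1 KD. In control KD, 1 gene had all TNF-α libraries below the basal ones, against 18.3% of all genes. This was Mlf1, with 5.96 and 8.21 CPM in the basal state and 4.09 and 5.59 CPM after TNF-α (log2 fold change -0.55, interval -1.12 to 0.02; edgeR, adjusted p = 0.425). Foxj1 went from 105 and 161 to 91 and 105 CPM, with an estimate of -0.44 (interval -0.89 to 0.01; adjusted p = 0.425). The median of the 9 in control KD was -0.41 (-0.02 for all genes). With 1 library left out it ranged from -0.77, without control KD replicate 1 in the basal state or replicate 2 after TNF-α, to 0.28 without replicate 2 in the basal state, and was 0.22 without replicate 1 after TNF-α. It was -0.37 without control KD replicate 1 in both states at once, an alternative chosen after seeing the data.

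In GSTM1 KD, 4 genes (Tekt1, Rsph1, Mlf1 and Hydin) had both TNF-α libraries below both basal libraries, against 22.2% of all genes. Rarres2 had both above, and the share of all genes in that direction was not computed. None of these passed the test. Rarres2 had 10.3 and 9.81 CPM in the basal state and 13 and 11.8 CPM after TNF-α (log2 fold change 0.31, standard error 0.151; edgeR, adjusted p = 0.58), and Tekt1 had 3.22 and 2.30 against 2.17 and 1.32 CPM (-0.65, standard error 0.609). The median of the 9 was -0.12, and between -0.21 and -0.05 with any library left out. None of the 107 genes tested in the 7 other lists, and none of the 30 transport genes, was called by edgeR or DESeq2 in either response. At an unadjusted p under 0.05, 5 of the 107 were lower in control KD, and 1 was higher and 2 lower in GSTM1 KD. Of all 15332 genes, 1920 in control KD and 1670 in GSTM1 KD passed this in either direction. Tppp3, a microtubule-associated protein, had log2 fold changes of -0.66 in control KD and -0.36 in GSTM1 KD.

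The responses to TNF-α in GSTM1 KD and control KD were compared directly by the interaction term. No gene of all 15332 was called by edgeR (0%; 295 at an unadjusted p under 0.05; 27 called by DESeq2), and none of the 9 was called by either tool or had an unadjusted p under 0.05. The estimates for the 9 ranged from -0.60 for Tekt1 (interval -2.60 to 1.40) to 1.05 for Dynlrb2 (interval -1.41 to 3.51). For Foxj1 the difference of the responses was 0.32 (interval -0.32 to 0.96). The intervals lay between -1 and 1 for Foxj1, Rsph1 and Rarres2 and reached beyond these bounds for the other genes, with an upper bound of 1.03 for Mlf1.

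Genes whose course over the 8 libraries was closest to that of Foxj1 were found by the root mean square difference of log2 CPM (prior count 2) after centring each of 15331 other genes on its own mean. The nearest were a gene with a clone-based name below 1 CPM in every library (0.061), Ccdc114 (0.072), of the dynein docking complex, and Wdr19 (0.078), of intraflagellar transport. Elof1 (0.080), a transcription elongation factor, and Pfkp (0.083), a phosphofructokinase of glycolysis, came next. Ccdc114 had 8.05 and 11.8 CPM in control KD, against 10.5 and 11.4 CPM in GSTM1 KD in the basal state, and 6.93 and 9.14 CPM and then 9.05 and 9.99 CPM after TNF-α. Among the 10 genes, Mlf1 was the nearest to Foxj1 (0.180, rank 634), followed by Rsph1 (0.258, rank 3397) and Rarres2 (0.290, rank 4734). Ccdc153 was far from it (1.389, rank 15107). The measure is a description over libraries that share groups and depth.

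The promoters of the 10 genes were searched for the letters GTTGCC, part of the X-box bound by RFX factors, and for TGTTTAC, a forkhead motif, on both strands (so also GGCAAC and GTAAACA). Neither motif contains the other. RefSeq windows of GRCm38.p6, from 250 bases before to 50 after the start site, were held for 7 of the 10 genes. GTTGCC was found in 6 of the 7 (Ccdc153, Dynlrb2, Mlf1, Tekt1, Hydin and, after the start site, Spef2, not in Tmem212), against 14.1% of all 27025 genes with such windows and 45 of 103 genes of the 7 other cilia lists. TGTTTAC was found in Mlf1 alone, against 4.05% of all genes. Windows of Foxj1, Rsph1 and Rarres2 were not used here. The stretches around the matches in 5 genes are shown because they hold this shared feature, 5′ to 3′ on the strand of the gene, with each match in capitals (GTTGCC or its reverse complement GGCAAC, and in Mlf1 also TGTTTAC):
Ccdc153, chr9:44240485-44240544, plus strand: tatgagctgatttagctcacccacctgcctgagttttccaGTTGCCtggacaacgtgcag
Dynlrb2, chr8:116504924-116504983, plus strand: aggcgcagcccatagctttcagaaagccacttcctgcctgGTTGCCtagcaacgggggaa
Mlf1, chr3:67373941-67374011, plus strand: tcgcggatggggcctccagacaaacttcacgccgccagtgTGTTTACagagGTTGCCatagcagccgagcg
Tekt1, chr11:72361883-72361957, minus strand: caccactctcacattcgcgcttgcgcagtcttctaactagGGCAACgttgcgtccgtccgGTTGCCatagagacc
Hydin, chr8:110266924-110266976, plus strand: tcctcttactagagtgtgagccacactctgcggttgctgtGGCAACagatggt

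The match began 152 bases before the RefSeq start site in Ccdc153, 51 in Dynlrb2, 105 in Mlf1 (with TGTTTAC at 116), 35 and 15 in Tekt1 and 13 in Hydin. A match describes these letters in the window and was not tested as a binding site. Genes with a match differed widely in level and in their estimates in GSTM1 KD, from Ccdc153 (log2 fold change 3.08 in the basal state) to Tekt1 (0.14).

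Markers of choroid plexus, the secretory epithelium of the ventricles, were higher in sum in GSTM1 KD in both states beside Ccdc153. Their summed level over 15 markers was 9.41 and 15.4 CPM in control KD, against 20.7 and 22.8 CPM in GSTM1 KD in the basal state, and 10.5 and 16.8 against 22 and 23.1 CPM after TNF-α. Of the 8 tested, 3 rose in the basal state (F5, Cldn2 and Folr1) and 2 after TNF-α (Cldn2 and Folr1), beside the 10.2% and 16.2% of all genes called, and none fell. In each state 6 of the 8 had a positive estimate, the others being Otx2 (-0.50) and Aqp1 (-0.40) in the basal state and Otx2 (-0.16) and Enpp2 (-0.07) after TNF-α. Cldn2, a tight junction claudin, had 0.113 and 0.703 CPM in control KD against 3.65 and 4.51 CPM in GSTM1 KD in the basal state (log2 fold change 3.39; edgeR, adjusted p = 0.0421), and 0.043 and 0.361 against 2.86 and 3.85 CPM after TNF-α (4.14; adjusted p = 0.0221). F5, Cldn2 and Folr1 met the count filter in both libraries only in GSTM1 KD, so the filter favoured this direction. The defining marker Ttr had 0 to 9 counts per library. The part of choroid plexus cells in the values of Ccdc153 was not tested.

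The summed level of the 10 genes, most of it Foxj1, was 135 and 207 CPM in control KD, against 175 and 189 CPM in GSTM1 KD in the basal state, and 118 and 147 against 164 and 175 CPM after TNF-α. The summed level of the 11 astrocyte markers was 3323 and 7364 CPM in control KD, against 6746 and 9760 CPM in GSTM1 KD in the basal state, and 3368 and 7420 against 6847 and 9626 CPM after TNF-α. The estimate was positive for 8 of the 11 in the basal state (median 0.41) and for 7 after TNF-α (median 0.49). Of the 11, none rose in either state and 1, S100b, fell (-1.44 in the basal state; edgeR, adjusted p = 0.0269), while Gfap had an estimate of 1.10 (adjusted p = 0.234). Of 7 neural stem and radial glia markers tested, 1 rose in each state (Prom1, 1.07 in the basal state; edgeR, adjusted p = 0.0325). Among the others in the basal state Hopx had an estimate of 1.25, Cd24a 0.51, Nes -0.47 and Fabp7 -0.44. Of 7 oligodendrocyte lineage markers tested, 1 fell in the basal state (Olig2, -0.85; edgeR, adjusted p = 0.0251) and 2 after TNF-α. Of 7 meningeal and fibroblast markers, 1 fell in the basal state (Col1a2, -1.13; adjusted p = 0.0352), and 1 rose and 2 fell after TNF-α. Of the tested markers of microglia (4), neurons (4) and endothelium (2) and of 12 cell cycle genes, edgeR called 0 in both states, with 0, 0, 2 and 1 at an unadjusted p under 0.05 in the basal state and 0, 0, 1 and 1 after TNF-α. The part of these cell types in the values of the cilia genes was not tested.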

How the data were processed

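RNA-seq of 8 libraries in 4 groups was analysed from the tables the authors deposited. Per the labels and the study's methods, reads were mapped to GRCm38 with STAR (version 2.5.4b) and quantified with RSEM (version 1.3.0). Expected counts, as deposited, are estimates per gene without normalization, with reads that match several transcripts divided among them. The deposited TPM values are the authors' levels per effective length, scaled to a common total. The annotation release is not given in the sources used here.

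Expected counts were rounded and tested with edgeR (version 4.0.16, R version 4.3.3): TMM factors, the group-wise filterByExpr and quasi-likelihood F-tests (the older method, the default of this version), with Benjamini-Hochberg adjustment over all genes tested at 0.05 and 95% intervals. Knockdown comparisons used the 4 libraries of a state, and TNF-α responses and their difference all 8. No exact test of 2 against 2 libraries can reach 0.05, and intervals and floors cover only the spread or counting error of these libraries. The members, gene lists and alternatives were chosen with earlier results of these data known. Named genes were the members, Gstm1, Dynlrb1, up to 4 called genes per cilia list and comparison (otherwise the 2 with the highest mean CPM), the 5 nearest to Foxj1 and up to 3 genes per marker list by mean CPM. Other regulators and markers were named after their values were seen. Positions are from GENCODE M21. Alternatives were DESeq2 (version 1.42.0), its size factors, library size alone, a minimum of 10 counts in all libraries, no filter, the newer quasi-likelihood method, a replicate block, effective lengths as offsets, other sets of libraries, TPM and leaving out each library. Scripts were tested on simulated data. The summed level of the microglia markers is not reported here.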

Additional observations from a re-analysis of the deposited data

How the results depend on the processing

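Under settings other than leaving out a library, log2 fold changes of the 9 genes kept their direction and their side of the threshold in 366 cases, newly passed it in 12 and changed sign in 3. With a library left out the numbers were 266, 11 and 38. The cause was not tested for any of these. The 3 sign changes were Foxj1 at the basal level without the filter (-0.02), and with effective lengths as offsets Spef2 in the GSTM1 KD response (-0.18) and Hydin in the difference of responses (0.01). Leaving out control KD replicate 1 in both states, an alternative chosen after seeing the data, gave Tekt1 0.10 in the control KD response and Hydin 0.16 in the difference.

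With each library left out in turn, estimates that changed sign ranged as follows. At the basal level they ranged from -0.27 to 0.34 for Foxj1, -0.33 to 1.29 for Dynlrb2, -0.01 to 0.44 for Mlf1, -0.33 to 0.80 for Tekt1 and -0.19 to 0.05 for Rarres2. After TNF-α they ranged from -1.10 to 0.52 for Tekt1 and -0.01 to 0.15 for Rarres2. In the control KD response they ranged from -0.38 to 0.25 for Rsph1, -4.93 to 1.70 for Ccdc153, -1.04 to 0.61 for Tekt1, -1.01 to 1.43 for Hydin and -1.36 to 0.39 for Spef2. In the GSTM1 KD response they ranged from -0.69 to 0.20 for Ccdc153, -0.13 to 0.09 for Dynlrb2 and -0.21 to 0.42 for Spef2. In the difference they ranged from -0.03 to 0.59 for Foxj1, -0.35 to 0.28 for Rsph1, -2.00 to 4.63 for Ccdc153, -0.02 to 0.45 for Mlf1, -1.27 to 0.39 for Tekt1, -1.87 to 0.58 for Hydin and -0.32 to 1.42 for Spef2.

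The number of the 9 genes past the threshold, 0 in each main comparison, was at the basal level 1 without the filter (Ccdc153), 3 with the replicate block (Ccdc153, Rsph1 and Spef2) and 0 to 6 with a library left out. After TNF-α it was 1 with the newer method (Ccdc153), 3 without the filter (Ccdc153, Dynlrb2 and Spef2), 3 with the block (Ccdc153, Foxj1 and Spef2) and 0 to 5 with a library left out. In the control KD response it was 1 without the filter (Foxj1). Over all genes, the 1524 calls at the basal level became 2762 with all 8 libraries, 2494 in DESeq2, 3957 without the filter, 4712 with the block and 1 to 5256 with a library left out. The 2360 calls after TNF-α became 4540 without the filter, 4302 with the block and 0 to 5028. The 403 calls of the control KD response became 738 in DESeq2, 1255 without the filter, 72 with only its 4 libraries, 988 with the block and 180 to 313 with a library left out. The 406 of the GSTM1 KD response became 629 in DESeq2, 1050 without the filter, 691 with only its 4 libraries, 808 with the block, 683 without control KD replicate 1 in both states and 74 to 444 with a library left out. The difference of responses, with 0 calls, gave 27 in DESeq2, 134 without the filter and 0 to 2 with a library left out.

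The groups share the replicate numbers 1 and 2, and the labels do not say what a number marks. Deviations of same-numbered libraries correlated across 15332 genes, which are not independent, at r between 0.165 and 0.575 over the 6 pairs of groups, and with 2 numbers the libraries were taken to share only a number. Of the 8 and 7 calls in the other cilia lists, 6 and 7 held with the newer method (Dync2li1 and Ift88 lost) and 8 and 5 with all 8 libraries (Pifo and Dnah7b lost). In the main fit these lists held 3 higher and 5 lower calls at the basal level and 4 and 3 after TNF-α. The block gave 31 and 8, then 24 and 7. Without the filter the numbers were 23 and 7, then 35 and 7. Depth limits Ccdc153, Hydin, Dynlrb2 and Tmem212, whose counts reach 7 or fewer in at least 1 library.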
